A study of Homo sapiens with 6 samples.

Results

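The ERM genes EZR (ezrin), RDX (radixin) and MSN (moesin), together with their close relative NF2 (merlin), were examined in 2 colorectal cancer cell lines. The members were taken by gene symbol in the annotation of the array, which gave 4 of 17687 named genes, each with 1 probe set. They were chosen by their log2 differences between the lines on these same 6 arrays, so those differences between the lines are given below as descriptions, with errors and without a test. RNA of untreated KM12SM and of untreated SW620 cells was hybridised to Clariom S arrays, 3 arrays per line, and the values are log2 signals. KM12SM is a liver-metastatic derivative, selected in mice, of the KM12 colon carcinoma line, and SW620 is a line from a lymph node metastasis of a colon carcinoma. The paper describes SW620 as poorly metastatic in liver. Both lines were kept in the same serum-containing medium. Each group is 1 line, so what goes with metastatic capacity or site cannot be told apart from what is particular to a line. The paper calls the 3 RNAs of a line independent replicates, but the sources do not say whether they came from separate cultures. The errors then measure only the spread between these arrays, which may be technical.

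Ezrin, radixin and moesin link the cortical actin cytoskeleton to the plasma membrane. An amino-terminal FERM domain binds membrane lipids and the tails of membrane proteins, and a carboxy-terminal domain binds actin filaments. The 2 ends of the protein bind each other and close the molecule until a membrane phosphoinositide and phosphorylation of a threonine near the carboxy terminus open it. Ezrin is the usual member in the microvilli of intestinal epithelium, whereas moesin is abundant in leukocytes and endothelium. Merlin has the same FERM domain but its main isoform lacks the actin-binding tail, and it is a tumour suppressor that acts upstream of the Hippo kinases.

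The bases before annotated transcription starts of the 3 ERM genes are printed because these genes differed between the lines. All sequences are RefSeq (GRCh38.p14), 250 bases upstream of a start, written 5′ to 3′ on the strand of the gene. Capitals mark GC boxes, the letters GGGCGG or their reverse complement CCGCCC, and overlapping matches were counted separately. MSN has 2 starts in the promoter table used. EZR has 1 there, but the RefSeq span of the gene reaches further upstream, so the EZR window lies inside the gene.
EZR, chr6:158818236-158818485, minus strand: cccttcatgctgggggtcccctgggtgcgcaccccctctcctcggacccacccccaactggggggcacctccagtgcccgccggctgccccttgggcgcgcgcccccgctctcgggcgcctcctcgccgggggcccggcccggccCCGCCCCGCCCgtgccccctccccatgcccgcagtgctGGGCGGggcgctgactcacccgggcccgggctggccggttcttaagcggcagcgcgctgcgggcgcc
RDX, chr11:110296615-110296864, minus strand: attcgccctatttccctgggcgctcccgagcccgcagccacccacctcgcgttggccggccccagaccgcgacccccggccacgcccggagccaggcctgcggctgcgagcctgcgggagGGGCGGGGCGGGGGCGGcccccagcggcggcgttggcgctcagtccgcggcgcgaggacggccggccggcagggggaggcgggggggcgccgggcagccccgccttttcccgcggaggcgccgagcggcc
MSN, first start, chrX:65588127-65588376, plus strand: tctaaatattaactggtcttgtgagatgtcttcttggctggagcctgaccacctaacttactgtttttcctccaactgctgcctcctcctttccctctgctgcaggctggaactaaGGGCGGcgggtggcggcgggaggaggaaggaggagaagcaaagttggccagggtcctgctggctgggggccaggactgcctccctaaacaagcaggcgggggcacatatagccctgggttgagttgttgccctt
MSN, second start, chrX:65667404-65667653, plus strand: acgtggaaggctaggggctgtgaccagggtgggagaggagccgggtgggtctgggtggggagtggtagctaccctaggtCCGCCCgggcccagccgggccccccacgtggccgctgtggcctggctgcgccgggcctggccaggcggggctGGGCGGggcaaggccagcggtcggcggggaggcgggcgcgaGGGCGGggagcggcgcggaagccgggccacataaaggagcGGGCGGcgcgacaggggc

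The EZR window held 28 CpG dinucleotides and was 80.8% G or C, and the RDX window held 38 CpG and was 82% G or C. Among 34943 promoter windows of the same length, the median was 11 CpG and 58% G or C, and 96.7% of windows had fewer CpG than that of RDX. The 2 MSN windows were unlike each other. The first held 5 CpG and 1 GC box, and the second held 26 CpG and 4 GC boxes. EZR and RDX had 3 GC boxes each. A GC box was found in 42.5% of all windows on either strand. The letters TATAAA (10.8% of windows), CAGGTG (17.5%) and CATTCC (11.9%), searched on both strands, were in none of these 4 windows, nor in the windows of the 2 NF2 starts. Those 2 NF2 windows overlap and hold the same 1 GC box. The arrays do not say which start was used.

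The array medians lay between 6.75 and 6.78 in KM12SM and between 6.71 and 6.74 in SW620. Across all 21448 probe sets, limma with Benjamini-Hochberg adjustment called 5362, or 25%, at an adjusted p under 0.05, with 2708 higher (12.6%) and 2654 lower (12.4%) in KM12SM. As a rough guide to the signal of silent genes, 348 olfactory receptor probe sets had a median of 3.68 in KM12SM and 3.69 in SW620, with a 95th percentile of 5.40 in KM12SM and 5.57 in SW620. The epithelial markers EPCAM (11.92 in KM12SM, 11.74 in SW620), KRT8 (12.74 in KM12SM, 12.42 in SW620) and KRT18 (11.75 in KM12SM, 11.24 in SW620) were bright in both lines, while the E-cadherin gene CDH1 averaged 9.25 in KM12SM and 5.55 in SW620 (adjusted p = 3.07e-09). The CDH1 mean in SW620 was just under the olfactory 95th percentile. Of 9 measured epithelial markers 6 rose and 3 did not pass the test, with a median log2 difference of 0.94. The widest differences were those of CDH17 (4.95), an intestinal cadherin, and LGALS4 (4.07), an intestinal galectin, both named after their values were seen. The KRT18 call (adjusted p = 0.0393) was lost with any array other than KM12SM replicate 3 left out (0.0548 to 0.179). The summed linear signal of the epithelial list was 18475 to 21589 in KM12SM and 12384 to 14221 in SW620. It was higher in the line with more EZR signal, as was that of the leukocyte list given below. The leukocyte marker PTPRC averaged 3.93 in KM12SM and 3.90 in SW620, near the olfactory median. Moesin is typical of leukocytes, endothelium and fibroblasts, so those lists were counted. Of 9 leukocyte markers 2 rose (CD68 and SPI1), of 10 endothelial markers 1 rose (ESAM), and of 9 fibroblast markers 1 fell (FBLN1), all 4 named after their values were seen. The SPI1 call (adjusted p = 0.0484) was lost without replicate 1 or 2 of KM12SM or replicate 1 or 2 of SW620 (0.0703 to 0.219). Under the olfactory 95th percentile stood 4 leukocyte, 4 endothelial and 4 fibroblast markers in KM12SM, and 5, 4 and 4 in SW620. The summed linear signal of the leukocyte list was 730 to 782 in KM12SM and 536 to 608 in SW620. For the endothelial list, which includes PECAM1 (5.01 in KM12SM, 4.85 in SW620), the sum was 742 to 856 in KM12SM and 623 to 802 in SW620. For the fibroblast list, which includes COL1A1 (7.22 in KM12SM, 7.54 in SW620), it was 768 to 808 in KM12SM and 845 to 1181 in SW620. The part of these markers in the results below was not tested.

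Ezrin was the ERM gene that was higher in KM12SM. The EZR probe set (TC0600013727.hg.1, chromosome 6) read 12.39, 12.32 and 12.45 in KM12SM, against 11.74, 11.87 and 11.59 in SW620. The lowest KM12SM array was 0.45 above the highest SW620 array, so the lines did not overlap. Of all probe sets, 19.1% had every KM12SM array above every SW620 array. The means were 12.39 ± 0.07 in KM12SM and 11.73 ± 0.14 in SW620 (SD, n = 3 each), a log2 difference of 0.65 (SE 0.17, 95% interval 0.30 to 1.01) or 1.57-fold.

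Radixin was at the level of the array background in KM12SM and well above it in SW620. The RDX probe set (TC1100012262.hg.1, chromosome 11) read 3.95, 3.72 and 3.79 in KM12SM, against 9.29, 9.64 and 8.86 in SW620. All 3 KM12SM arrays lay near the olfactory median of 3.68, and the RDX mean was above 58.3% of olfactory receptor probe sets in KM12SM and above 100% of them in SW620. The means were 3.82 ± 0.12 in KM12SM and 9.26 ± 0.39 in SW620 (SD, n = 3 each), a log2 difference of -5.44 (SE 0.20, 95% interval -5.87 to -5.02), or 43.5-fold lower in KM12SM. Of all probe sets, 9 including RDX were at least as far below SW620 (0.0420%). Because the KM12SM signal was within that of the olfactory receptor probe sets, the size of this difference depends on the array background, and with values raised to the olfactory 95th percentile of each array it was -3.83. The ERM genes are similar in sequence. On the KM12SM arrays EZR averaged 12.39, MSN 6.85 and RDX 3.82, and whether probes of a member pick up RNA of another was not tested.

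Moesin was also much lower in KM12SM, but not at the level of the olfactory receptor probe sets. The MSN probe set (TC0X00011302.hg.1, chromosome X) read 7.12, 7.01 and 6.41 in KM12SM, against 10.91, 11.09 and 10.43 in SW620. Every KM12SM array was below every SW620 array by at least 3.31. Of all probe sets, 18.6% had every KM12SM array below every SW620 array by any amount. The means were 6.85 ± 0.38 in KM12SM and 10.81 ± 0.34 in SW620 (SD, n = 3 each), a log2 difference of -3.96 (SE 0.22, 95% interval -4.43 to -3.50), or 15.6-fold lower in KM12SM. The KM12SM mean was above 99.7% of olfactory receptor probe sets. Of all probe sets, 54 including MSN were at least as far below SW620 (0.252%).

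Merlin overlapped between the lines. The NF2 probe set (TC2200007027.hg.1, chromosome 22) read 8.53, 8.28 and 7.64 in KM12SM, against 8.03, 8.22 and 7.42 in SW620. The means were 8.15 ± 0.46 in KM12SM and 7.89 ± 0.42 in SW620 (SD, n = 3 each), a log2 difference of 0.26 (SE 0.24, 95% interval -0.26 to 0.78). Thus 3 of 4 members did not overlap between the lines, beside 37.7% of all probe sets. This count follows from how the members were chosen.

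**Figure D1:**
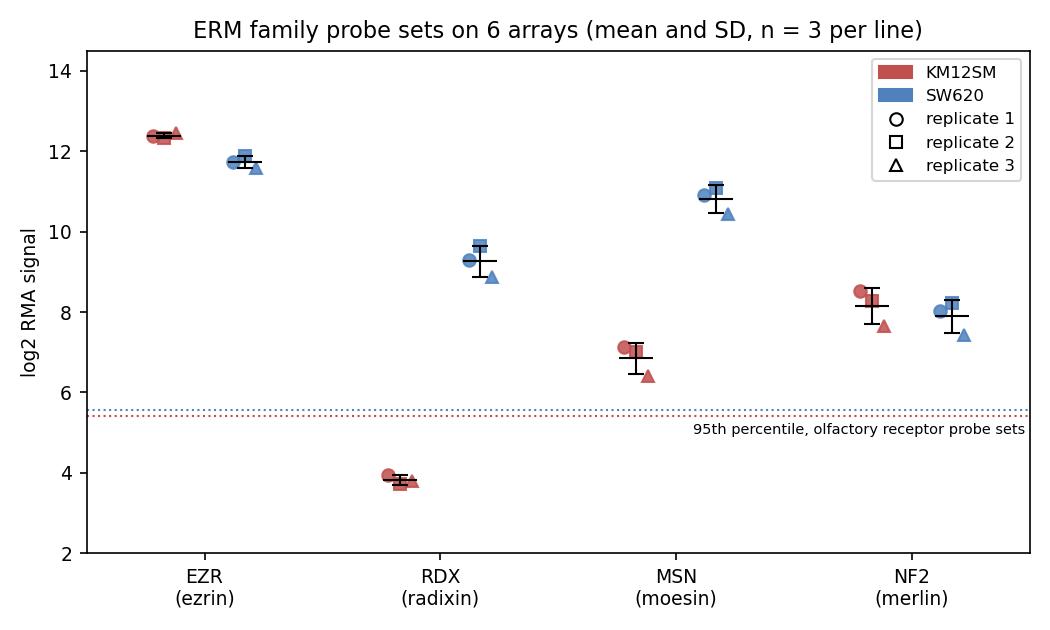
Log2 signal of the EZR, RDX, MSN and NF2 probe sets on each array, KM12SM left of SW620 in each pair, with points for the 3 arrays bars for the mean and SD, and dotted lines at the olfactory receptor 95th percentile of each line. RDX averaged 3.82 in KM12SM and 9.26 in SW620, MSN 6.85 in KM12SM and 10.81 in SW620, while the NF2 arrays overlapped.

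Replicate 3 was the lowest array of both lines for MSN and NF2. It was 0.44 below the KM12SM mean and 0.38 below the SW620 mean for MSN, and 0.51 below in KM12SM and 0.47 below in SW620 for NF2. For RDX and EZR it was the lowest array in SW620 but not in KM12SM. Leaving out replicate 3 of both lines gave log2 differences of 0.55 for EZR, -5.63 for RDX, -3.94 for MSN and 0.28 for NF2.

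The balance between the paralogues was followed array by array as the log2 ratio of 2 probe sets. Such a ratio shows unequal change between the lines and is no ratio of transcript numbers, because probe sets differ in brightness. The EZR over RDX log2 ratio was 8.44, 8.60 and 8.66 in KM12SM, against 2.45, 2.23 and 2.73 in SW620. The means of 8.57 ± 0.11 in KM12SM and 2.47 ± 0.25 in SW620 (SD, n = 3 each) differed by 6.10, or 68.4-fold as measured, and by 4.49 on the log2 scale with values raised to the olfactory 95th percentile, since RDX in KM12SM was at background. The arrays of a line were close together and the lines far apart. The EZR over MSN log2 ratio was 5.27, 5.31 and 6.04 in KM12SM, against 0.83, 0.78 and 1.16 in SW620. Its means of 5.54 ± 0.43 in KM12SM and 0.92 ± 0.21 in SW620 differed by 4.62, or 24.5-fold. Both ratios thus ran toward ezrin in KM12SM. The MSN over RDX log2 ratio was 3.17, 3.29 and 2.62 in KM12SM, against 1.62, 1.45 and 1.57 in SW620, a difference of 1.48 or 2.79-fold. With values raised to the olfactory 95th percentile this difference was reversed, at -0.13. The floor lifts RDX in KM12SM and leaves the MSN difference at -3.96, so this reversal follows from the floor. It cannot decide which of RDX and MSN was further below SW620, and the array background limits the RDX difference as measured.

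**Figure D2:**
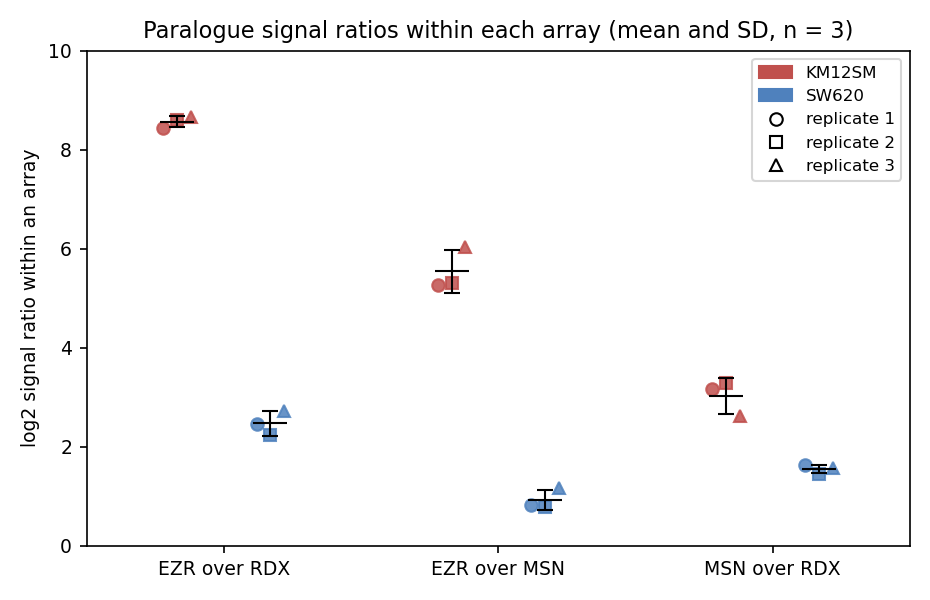
Log2 ratios of EZR over RDX, EZR over MSN and MSN over RDX on each array, KM12SM left of SW620 in each pair, with points for arrays and bars for the mean and SD. The 3 KM12SM arrays lie above the 3 SW620 arrays for all 3 ratios, by 6.10, 4.62 and 1.48 between the means. With values raised to the olfactory 95th percentile, which lifts RDX in KM12SM, the first is 4.49 and the last is reversed at -0.13.

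Genes that switch ERM proteins on changed in both directions. Of 26 measured genes of the ERM cycle, which include its kinases, phosphoinositide kinases and phosphatase subunits, 6 rose, 6 fell and 14 did not pass the test (46.2% called against 25% of all probe sets), with a median log2 difference of 0.14 beside 0.01 over all probe sets. PIP5K1B, a kinase that makes the phosphoinositide that opens ERM proteins, read 8.97, 9.23 and 9.31 in KM12SM, against 4.80, 4.83 and 5.72 in SW620. Its log2 difference was 4.05 (SE 0.23, adjusted p = 1.66e-09), and the SW620 mean of 5.12 was under the olfactory 95th percentile. SLK and STK10 are the kinases best known for phosphorylating the carboxy-terminal threonine, and they moved in opposite directions. SLK read 11.20, 11.02 and 11.37 in KM12SM, against 9.81, 10.08 and 9.48 in SW620 (log2 difference 1.41, SE 0.19, adjusted p = 3.46e-05). STK10 read 8.08, 8.20 and 7.77 in KM12SM, against 8.68, 8.66 and 8.34 in SW620 (log2 difference -0.54, SE 0.18, adjusted p = 0.0383). The STK10 call was lost without KM12SM replicate 1 (adjusted p = 0.0827), KM12SM replicate 3 (0.123), SW620 replicate 1 (0.158) or SW620 replicate 2 (0.108). PRKCQ, a protein kinase C, rose by 1.60 (SE 0.19, adjusted p = 9.89e-06). The differences in the list reached -1.17 on the lower side and 4.05 on the higher side. Leaving out 1 array at a time called 8 to 12 of this list. This list and those below were chosen with earlier results of these data known, so their shares called are descriptions. In KM12SM 2 of the 26 genes averaged under the olfactory 95th percentile, beside 6362 of all 21448 probe sets. The list thus held a smaller share of dim probe sets. In the lists below, the same count was 8 of 23 membrane partners and 1 of 19 genes of merlin and the Hippo core. It was 13 of 44 other FERM genes and 0 of 18 genes of the microvillus core. The shares called in those lists also stand beside 25% of all probe sets.

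Among the membrane proteins and scaffolds that ERM proteins bind, 7 of 23 measured genes rose, 7 fell and 9 did not pass the test (60.9% called, median 0.05). CD44, the hyaluronan receptor, read 10.37, 10.35 and 10.60 in KM12SM, against 7.39, 7.23 and 7.15 in SW620. The lines were far apart, with a log2 difference of 3.18 (SE 0.17, adjusted p = 7.75e-10). ICAM1, an adhesion ligand for leukocyte integrins, averaged 8.37 in KM12SM and 7.10 in SW620 (log2 difference 1.27, SE 0.23, adjusted p = 0.000641). The related adhesion molecule ICAM2 went the other way, at 5.34, 4.95 and 4.90 in KM12SM, against 7.86, 7.75 and 7.86 in SW620 (log2 difference -2.76, SE 0.18, adjusted p = 7.06e-09), and its KM12SM mean of 5.06 was under the olfactory 95th percentile. L1CAM, a neural cell adhesion molecule, read 5.98, 6.06 and 6.98 in KM12SM, against 8.36, 8.30 and 8.21 in SW620, a log2 difference of -1.95 (SE 0.23, adjusted p = 8.58e-06). PODXL, a sialomucin of apical membranes, and CFTR, the chloride channel, rose by 1.73 (adjusted p = 9.34e-07) and 1.87 (adjusted p = 5.68e-07). CFTR averaged 5.67 in KM12SM and 3.80 in SW620, so the SW620 signal was close to the olfactory median. Ligands of both directions were thus among the genes with the widest differences. The scaffold NHERF1 was not analysed here, and one array at a time left out gave 11 to 14 calls.

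For merlin and the Hippo core, 5 of 19 measured genes rose, 3 fell and 11 did not pass the test (42.1% called, median 0.05). The count was 5 without KM12SM replicate 2 or without SW620 replicate 1. TAOK3, an upstream kinase of the pathway, read 8.13, 7.44 and 7.51 in KM12SM, against 5.30, 5.82 and 4.63 in SW620 (log2 difference 2.44, SE 0.26, adjusted p = 3.29e-06). Its SW620 mean of 5.25 was under the olfactory 95th percentile. The paralogous Hippo kinases STK3 and STK4 moved in opposite directions. STK3 read 9.12, 9.20 and 9.76 in KM12SM, against 8.59, 8.72 and 8.44 in SW620 (log2 difference 0.78, SE 0.19, adjusted p = 0.00714). STK4 read 8.18, 8.06 and 8.05 in KM12SM, against 9.31, 9.31 and 8.95 in SW620 (log2 difference -1.09, SE 0.17, adjusted p = 0.000158). Their scaffold SAV1 rose by 1.22 (adjusted p = 0.000188), and FRMD6, a FERM protein that acts upstream, fell by 0.69 (adjusted p = 0.00524). The kinases next in line gave no call, with LATS1 at 9.19 in KM12SM and 8.69 in SW620 (adjusted p = 0.0632) and LATS2 at 7.28 in KM12SM and 7.09 in SW620 (adjusted p = 0.508). With the replicate number as a block LATS1 passed, at an adjusted p of 0.0452.

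Of 44 other genes for FERM domain proteins, 9 rose, 6 fell and 29 did not pass the test (34.1% called, median 0.07). FERMT2, a kindlin that activates integrins, read 4.33, 4.72 and 5.32 in KM12SM, against 8.37, 8.55 and 8.20 in SW620. All KM12SM arrays were under the olfactory 95th percentile, and the log2 difference was -3.58 (SE 0.22, adjusted p = 5.60e-09). Its epithelial paralogue FERMT1, picked after its values were seen, read 11.19, 11.11 and 11.34 in KM12SM, against 9.85, 10.14 and 9.81 in SW620 (log2 difference 1.28, SE 0.17, adjusted p = 3.23e-05). The remaining kindlin gene, FERMT3, also picked after its values were seen, differed by 0.39 with an adjusted p of 0.116. EPB41L1 and EPB41L2, relatives of the red cell membrane skeleton protein, rose by 2.36 (adjusted p = 2.07e-07) and 1.62 (adjusted p = 1.19e-05), and PLEKHH1 rose by 2.09 (adjusted p = 8.48e-07). PTPN13, a phosphatase with a FERM domain, fell by 2.06 (adjusted p = 4.13e-05), and its KM12SM mean of 3.81 was close to the olfactory median. Leaving out 1 array at a time called 12 to 17.

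Genes of the microvillus core, the structure in which ezrin is best known in the intestine, included 6 of 18 that rose, 4 that fell and 8 that did not pass the test (55.6% called, median 0.26). MYO1D, a myosin that links actin to the membrane, read 9.68, 9.72 and 10.12 in KM12SM, against 7.61, 7.73 and 7.62 in SW620 (log2 difference 2.19, SE 0.18, adjusted p = 1.15e-07). MYO6, the myosin that moves toward the minus end of actin, averaged 8.22 in KM12SM and 6.26 in SW620 (log2 difference 1.95, SE 0.21, adjusted p = 3.42e-06). The bundling protein PLS1 rose by 1.09 (adjusted p = 0.0001), and EPS8, a capping and bundling protein of microvillus tips, rose by 0.83 (adjusted p = 0.00179). Its relative EPS8L3 fell by 1.07 (adjusted p = 0.000822). Villin, VIL1, named after its values were seen, averaged 7.52 in KM12SM and 8.33 in SW620 (log2 difference -0.81, adjusted p = 0.00857). The list therefore did not move as a whole with EZR, and 7 to 10 genes were called with 1 array left out.

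**Figure D3:**
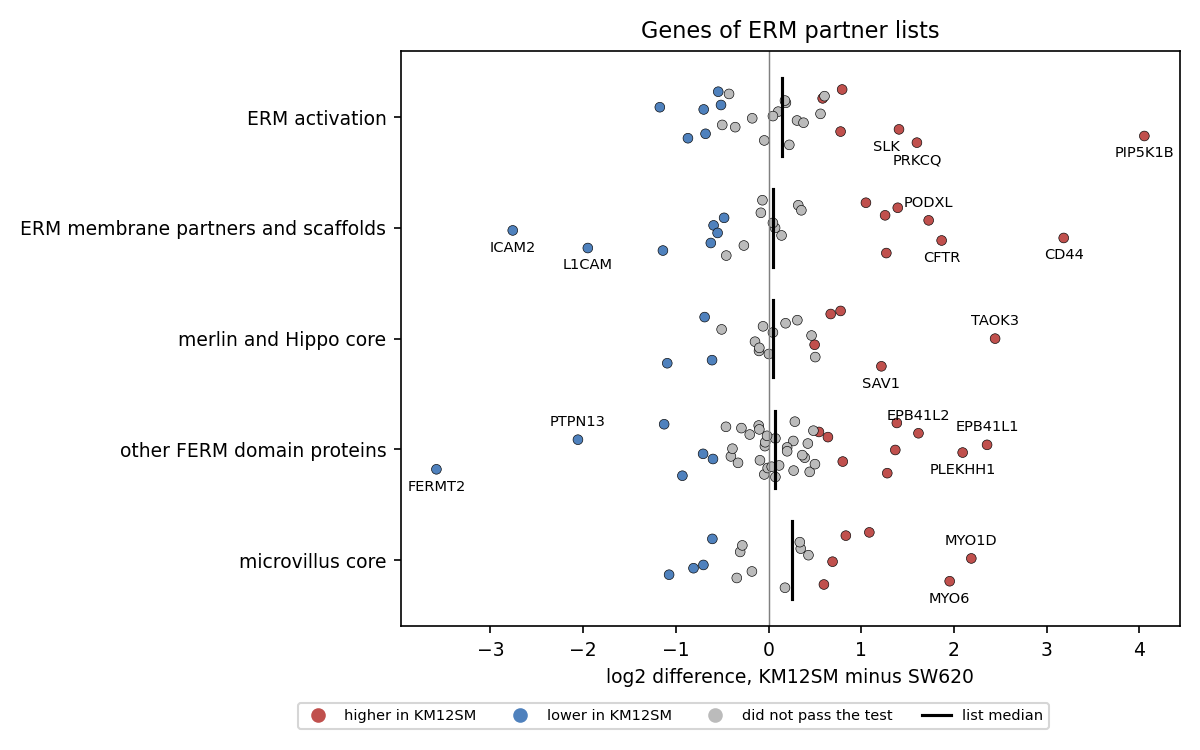
Log2 differences, KM12SM minus SW620, of the measured genes in the 5 lists of ERM partners, 1 point per gene, with red higher, blue lower and grey not past the test, and a black bar at each list median. The medians lie between 0.05 and 0.26, and each list has genes on both sides, from FERMT2 at -3.58 to PIP5K1B at 4.05.

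The named probe sets whose profiles over the 6 arrays, centred on their means, came nearest to those of RDX and MSN were found by root mean square difference. This measure mostly picks probe sets with a difference of the same size between the lines. For RDX they were SESN3 (0.182), MSANTD4 (0.183) and KLRC2 (0.197), with log2 differences of -5.56, -5.66 and -5.58. SESN3 and MSANTD4 lie on chromosome 11, as RDX does, 57 and 20 measured genes away from it, and KLRC2 lies on chromosome 12. These 3 averaged 3.70 to 3.86 in KM12SM, close to the olfactory median, so the array background limits their differences as it does that of RDX. For MSN they were ELAVL2 (0.0757), SLC7A8 (0.0901) and HOMER2 (0.0926), with log2 differences of -3.90, -4.04 and -3.83, on chromosomes 9, 14 and 15. In KM12SM ELAVL2 (4.13) and SLC7A8 (5.30) averaged under the olfactory 95th percentile, while HOMER2 (5.60) and MSN did not. The array background thus also limits the differences of ELAVL2 and SLC7A8.

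The measured genes beside each member on its chromosome, in the gene order of RefSeq (GRCh38.p14), were also compared. Beside RDX, 3 of the 6 nearest genes (3 on each side) were lower in KM12SM. The genes on either side of it were ZC3H12C, at 3.96 in KM12SM and 6.09 in SW620 (log2 difference -2.14, SE 0.23, adjusted p = 3.78e-06), and FDX1, the mitochondrial ferredoxin gene, at 6.95 in KM12SM and 8.62 in SW620 (log2 difference -1.67, SE 0.18, adjusted p = 3.52e-06). The third was DDX10, an RNA helicase gene (log2 difference -0.77, adjusted p = 0.0047). The KM12SM mean of ZC3H12C was under the olfactory 95th percentile. Beside MSN, ZC4H2 (log2 difference -1.85, adjusted p = 5.93e-06) and LAS1L (-0.76, adjusted p = 0.00261) were lower among 6. Beside NF2, only ZMAT5 of 6 passed (-0.84, adjusted p = 0.00314), and the 6 genes beside EZR differed by -0.18 to 0.45, with adjusted p of 0.0987 or above. Over 25 genes on each side, a width chosen after the data were seen, 10 of 50 were lower beside RDX (20.0%, against 13.9% of 1191 genes on chromosome 11) and 5 were higher (10.0%, against 7.81%). Beside MSN 10 of 50 were lower (20.0%, against 24.9% of 708 genes on chromosome X) and 3 were higher, against 5.51% on the chromosome. The lower genes near RDX included MSANTD4, the gene 20 places away. The higher ones included IL18, a cytokine gene named after its values were seen (7.73 in KM12SM and 3.53 in SW620, a log2 difference of 4.19). The SW620 mean of IL18 was under the olfactory 95th percentile. ARHGAP20 and POU2AF2, next after FDX1, differed by 0.10 and 0.36 without passing the test.

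**Figure D4:**
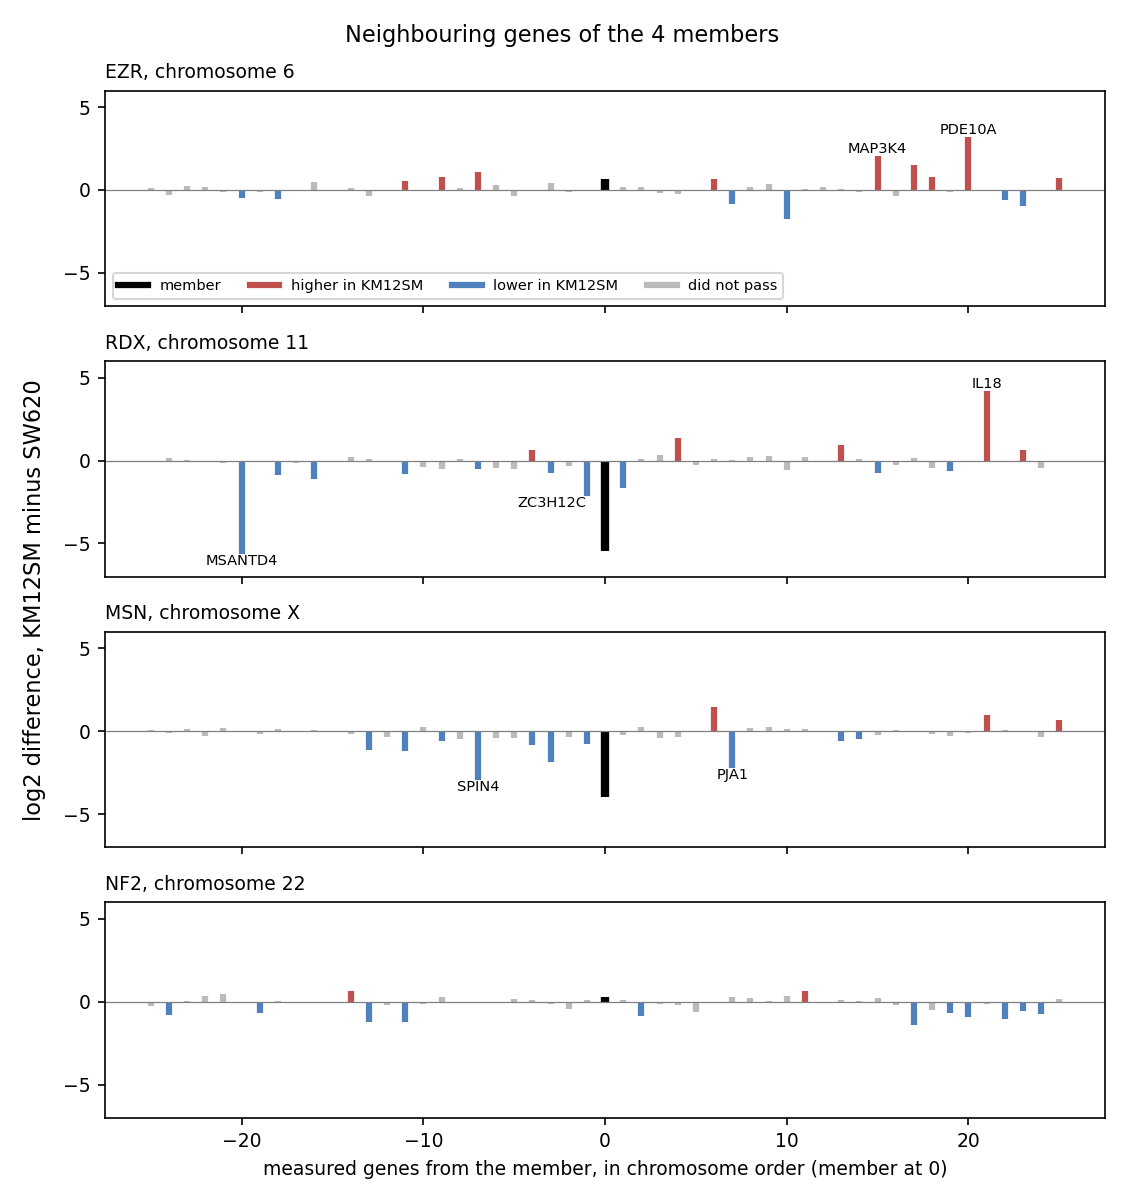
Log2 difference, KM12SM minus SW620, of the 25 measured genes on each side of EZR, RDX, MSN and NF2, in chromosome order with the member in black at 0, red higher, blue lower and grey not past the test. RDX (-5.44) stands between ZC3H12C (-2.14) and FDX1 (-1.67), and of the 50 genes around it 10 were lower and 5 were higher, up to IL18 at 4.19.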

How the data were processed

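The authors deposited log2 values, made from Clariom S arrays with the RMA algorithm (background correction, normalisation and summary per gene) of Transcriptome Analysis Console and rounded to 2 decimals. Differences of dim probe sets, such as RDX in KM12SM, depend on the array background. The version and the genome build were not given in the sources used here. Labels gave each array its line and replicate number. Differences (KM12SM minus SW620) were fitted in R 4.3.3 with limma 3.58.1 (lmFit, eBayes, two-sided) over all 21448 probe sets, without filter or block, p-values adjusted by Benjamini-Hochberg and called under 0.05. The fit was tested on simulated data. Of the probe sets, 17709 carry a symbol and 3739 are unnamed here. Precision is set by 3 arrays per line, with a median SE of 0.18 for a difference. The members and all lists were chosen with earlier results of these data known.

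Named in the text were the members, up to 5 called genes with the widest differences of each partner list, STK10, SLK, CD44, ICAM1, LATS1 and LATS2, the 3 nearest profiles for members differing by at least 1, called neighbours and cell type markers, besides those marked as picked after their values were seen. A few genes that this rule gives are not reported here. Alternatives were another normalisation, a floor, array weights, another variance model, the methods' t-test, a filter on dim probe sets, a fold minimum, a replicate block and arrays left out. The protein data of the study were not used here. No protein sequences were used.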

Additional observations from a re-analysis of the deposited data

How the results depend on the processing

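Leaving out 1 array at a time gave log2 differences of 0.58 to 0.72 for EZR, -5.65 to -5.26 for RDX, -4.15 to -3.75 for MSN and 0.03 to 0.52 for NF2. The ratio differences were 5.98 to 6.23 for EZR over RDX, 4.37 to 4.75 for EZR over MSN and 1.35 to 1.68 for MSN over RDX. Calls ranged from 4099 to 5428 over all probe sets and from 5 to 8 for merlin and the Hippo core. With values raised to the olfactory 95th percentile, RDX differed by -3.83, EZR over RDX by 4.49 and MSN over RDX by -0.13, because RDX in KM12SM stood at the floor. That floor moved the median of all probe sets to -0.20. No alternative that was run reversed the difference of a member. Array weights called 10078 probe sets, 20 genes of ERM activation, 17 membrane partners, 11 of merlin and the Hippo core, 25 other FERM proteins and 14 of the microvillus core. The cause of these larger counts was not tested. The methods' t-test after Benjamini-Hochberg adjustment called 3038 probe sets, 7 genes of ERM activation, 9 membrane partners, 5 of merlin and the Hippo core, 9 other FERM proteins and 5 of the microvillus core. A fold of at least 2 left 2242 probe sets, 4 genes of ERM activation, 10 membrane partners, 3 of merlin and the Hippo core, 9 other FERM proteins and 4 of the microvillus core.

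Arrays with the same replicate number were weakly alike in their deviations from the line means. The correlations were 0.0577, 0.0951 and 0.149 for replicates 1, 2 and 3. KM12SM replicate 2 correlated about as well with SW620 replicate 1 (0.100). Replicate 3 of either line gave -0.142 to -0.0450 with replicates 1 and 2 of the other line. A block on the replicate number lowered the SE of the difference from 0.22 to 0.16 for MSN and from 0.24 to 0.16 for NF2. The SE changed less for EZR (0.17 to 0.16) and RDX (0.20 to 0.19). With the replicate number as a block, 5681 probe sets were called, and the lists had 13 calls for ERM activation, 14 for membrane partners, 9 for merlin and the Hippo core, 15 for other FERM proteins and 10 for the microvillus core. Among list genes the block added calls for PRKCA, LATS1 and WWC1 and removed those of PAK2 and SPI1.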

Other observations

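The shares of genes called lower or higher in KM12SM were counted over the whole chromosome of each member. Over all probe sets, 12.4% were lower and 12.6% were higher. On chromosome X, which carries MSN, 24.9% of 708 measured genes were lower and 5.51% were higher. On chromosome 11, which carries RDX, 13.9% of 1191 genes were lower and 7.81% higher, and on chromosome 22, which carries NF2, 15.6% of 397 were lower and 7.30% higher. On chromosome 6, which carries EZR, the shares were 13.5% lower and 14.3% higher of 925 genes. Both shares of chromosome 6 and the lower share of chromosome 11 were near those over all probe sets. Around NF2, 11 of the 50 nearest genes were lower and 2 were higher, although NF2 itself overlapped between the lines. These shares were examined after the data were seen, and no cause was tested.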
